A study of Mus musculus with 2 samples.

Results

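The cells described here were fibroblasts of mouse ear skin that carried transcripts of *Cyp2f2*, which encodes a cytochrome P450, and they were compared between control skin and allergic contact dermatitis (ACD). They were chosen by their counts in the deposited single-cell libraries, in which each unique molecular identifier (UMI) stands for 1 captured transcript molecule. A member held at least 1 UMI of *Pdgfra* (a receptor that marks fibroblasts), none of *Ptprc* (a surface protein of leukocytes), at least 3 of *Cyp2f2*, at most 2 of *Pi16* and at most 2 of *Gdf10* and *C7* together. The rule was met by 954 of the 23878 cells that passed the quality limits, 743 of 12213 in the control library and 211 of 11665 in the ACD library. Both libraries came from ear skin of ICR mice 7 to 8 weeks old. The control mice were healthy. The ACD mice had been sensitized on dorsal skin with 1.0% 2,4-dinitrofluorobenzene (DNFB), a hapten that binds skin proteins, and 6 days later their ears were painted with 0.2% DNFB and collected after 60 hr. There was 1 library per group and the number of mice behind each library is not given in the sources used here, so no value had a replicate check. All intervals below are 95% intervals that cover counting error only, and none of them measures the spread between mice.

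Dermal fibroblasts build the collagen and elastic matrix of the skin and differ by depth: papillary cells lie under the epidermis, receive and answer Wnt signals, and support the hair follicle, whereas reticular cells fill the lower dermis. Cells that express *Pi16* and *Ly6a* are widely regarded as a progenitor-like fibroblast state. Interferon-γ (IFNγ), released mainly by T cells and natural killer cells, binds the receptor chains encoded by *Ifngr1* and *Ifngr2*, and the signal runs through the kinases Jak1 and Jak2. Gamma-activated sites (GAS) are DNA elements of genes that answer IFNγ. Interferon-stimulated response elements (ISRE) are bound by interferon regulatory factors and by the complex formed after type I interferon.

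The libraries held 99037698 UMIs in 12895 barcodes for control and 126566870 UMIs in 13163 barcodes for ACD. The members held 8000304 UMIs in control and 2975085 UMIs in ACD. Their median depth was 10014 UMIs and 2847 genes per cell in control and 14406 UMIs and 3376 genes per cell in ACD. The median mitochondrial share was 1.95% and 2.19%. Of all barcodes, 50 occurred in both libraries, of which 1 was a member in control and 0 were members in both. Levels are given as CPM, the UMIs of a gene per 1000000 UMIs of the summed cells of a class in a library, and are not corrected for gene length. A further 3 gated classes of the same libraries served for comparison: *Pi16*-positive fibroblasts (419 control and 357 ACD cells), *Gdf10* or *C7*-positive fibroblasts (112 and 29 cells), and *Acan*-positive cartilage cells (1596 and 1145 cells).

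The label given to these cells held for 3 of the 4 marker genes that the rule did not use (plot of marker and leading genes). *Stc1*, which encodes the secreted glycoprotein stanniocalcin-1, stood at 129 CPM in control members and 4.64 in control *Pi16*-positive cells, and at 112 and 2.92 in ACD. *Sp5*, a transcription factor gene that is a direct target of Wnt signalling, stood at 86.9 and 15.2 in control and at 100.2 and 14.6 in ACD. *Pla2g2e*, a secreted phospholipase A2 gene, stood at 121.5 and 25.2 in control and at 38.0 and 16.6 in ACD. These 3 genes were thus higher in the members in each library. *Col23a1*, which encodes a transmembrane collagen, hardly set the members apart, with 48.5 against 33.5 in control and 58.8 against 55.0 in ACD. Of the papillary markers, *Lrig1*, *Axin2* and *Col13a1* were above the *Pi16*-positive cells in control by 0.75, 1.07 and 1.32 on the log2 scale, while *Apcdd1*, *Ntn1*, *Col18a1* and *Lef1* differed by 0.06, -0.04, 0.03 and -0.37. The 7 papillary markers summed to 364 CPM in control members and 296 in control *Pi16*-positive cells, and to 310 and 247 in ACD. The 6 markers of the reticular or progenitor-like state, which hold *Ly6a* and also *Pi16* itself, summed to 2112.5 and 4484 in control and to 3530 and 4273 in ACD. *Ly6a* alone held 12139 of the 16901 UMIs of these markers in control members and 8943 of the 10502 in ACD members. The sums in the members therefore mainly follow *Ly6a*, which had a UMI in 97.8% of control members. The 7 preadipocyte markers, which hold *Gdf10* and *C7* themselves, summed to 5930 in control members and 3072 in control *Pi16*-positive cells, and to 3737 and 1845 in ACD. They were higher still in the *Gdf10* or *C7*-positive cells (7565 in control and 5714 in ACD) and the *Acan*-positive cells (11151 and 8731). In the members, *Apoe* alone made up 5430 of the 5930 in control and 3150 of the 3737 in ACD, so their sums mainly follow that gene. The cells are called *Cyp2f2*-positive fibroblasts here, since the rule does not set a depth.

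Genes from several pathways are given with their control levels beside the *Pi16*-positive cells. The 12 genes that led the members over the other *Pdgfra*-positive, *Ptprc*-negative cells in control included *Cyp26b1*, *Aldh1a1*, *Sema3a* and *Cpz*. They also included *Ccl3* and *Ccl4*, whose control UMIs lay almost all in 1 cell. The 12 that led in ACD included *Cpz*, *Hpgd*, *Stmn2* and *Col1a1*. *Rspo3* and *Edn3* were in neither set. In retinoid metabolism, *Cyp26b1*, which encodes an enzyme that degrades retinoic acid, stood at 1110 CPM in control members against 213 in *Pi16*-positive cells, and *Aldh1a1*, which encodes an enzyme that makes retinoic acid, at 513 against 115. Among secreted signals, *Rspo3* (an amplifier of Wnt signalling) stood at 111 against 25, *Edn3* (endothelin-3, a ligand for melanocyte-lineage cells) at 54.4 against 11.8, and *Sema3a* (an axon guidance protein) at 100.1 against 33.2. Among other enzymes, *Cpz* (a carboxypeptidase) stood at 252 against 80.4 and *Hpgd*, which inactivates prostaglandins, at 152 against 29.9. *Stmn2*, a regulator of microtubules, stood at 460 against 134. The members were also rich in transcripts of the main collagen, with *Col1a1* at 20564 against 9518. Since the rule chose the members by counts of these same cells, these levels are a description.

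**Figure D1:**
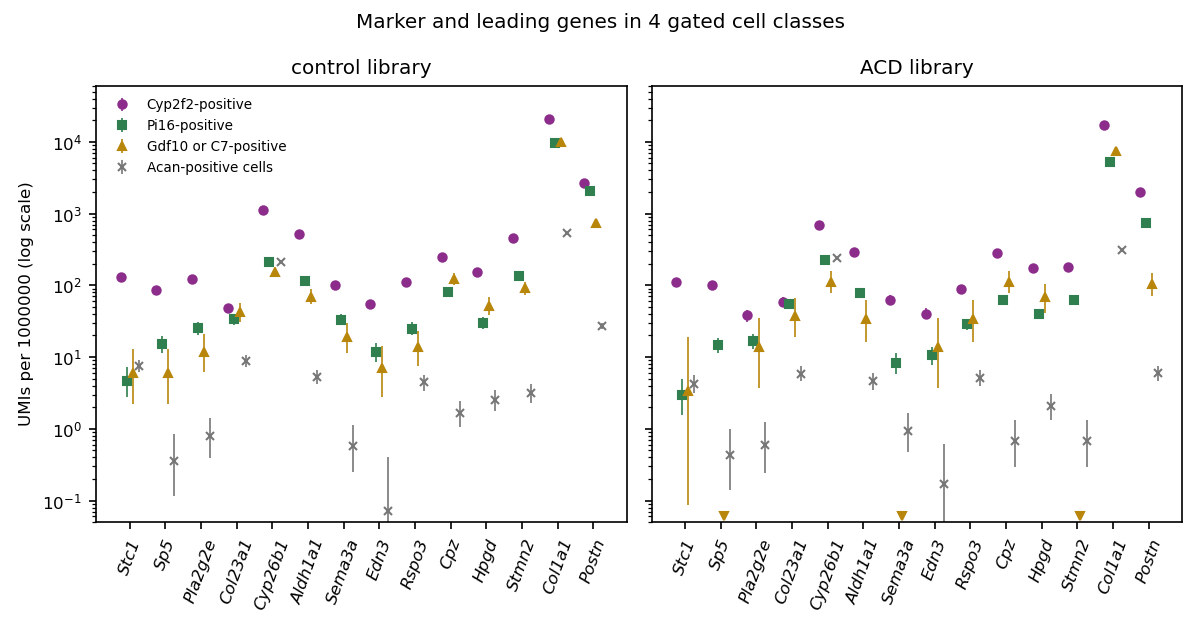
Levels of marker, leading and further genes in the *Cyp2f2*-positive fibroblasts and 3 other gated classes, as UMIs per 1000000 on a log axis, in the control library (left) and the ACD library (right). Bars are exact Poisson 95% intervals of the counts and a triangle at the lower edge marks a class with no UMI. *Stc1* and *Sp5* were highest in the members in both libraries, whereas *Pla2g2e* stood at 121.5 in control and 38.0 in ACD.

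In control, the boundary at 3 *Cyp2f2* UMIs was steep for *Stc1* and less so for *Sp5*, and in ACD it was less regular. In the control library, the 293 *Pdgfra*-positive, *Ptprc*-negative cells with 1 *Cyp2f2* UMI had 38.9 *Stc1* CPM. The 158 such cells with 2 *Cyp2f2* UMIs had 12.3 and the 117 members with exactly 3 had 100.6. In the ACD library, the 42 cells with 2 UMIs had 37.2, the 39 members with 3 had 113 and the 33 members with 4 had 59.1. *Aldh1a1* stood at 170.9 and 364 on the 2 sides of the threshold in control, and *Sp5* at 41.5 and 64.3. In ACD *Aldh1a1* stood at 136 and 173 and *Sp5* at 61.5 and 63.9. *Pla2g2e* stood at 46.3 and 91.3 in control and at 32.4 and 27.4 in ACD. For *Aldh1a1*, *Sp5* and *Pla2g2e* the ACD intervals overlapped across the threshold, whereas for *Stc1* they did not. The median member held 7 *Cyp2f2* UMIs in each library. In ACD, *Cxcl9*, a chemokine gene, was high around the threshold: it stood at 1117 CPM in the cells with 2 *Cyp2f2* UMIs, at 648 in the members with 3, at 1372 in the 33 members with 4 and at 76.0 in the 52 members with 12 or more.

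The members made up a smaller share of the ACD library. They were 6.08% of all cells kept in control (5.67% to 6.52%, exact binomial interval) and 1.81% in ACD (1.57% to 2.07%). Of the *Pdgfra*-positive, *Ptprc*-negative cells, which took up 45.4% of the control library and 28.2% of the ACD library, they were 13.4% (743 of 5547) and 6.41% (211 of 3292), which is 2.09-fold lower in ACD (1.80 to 2.42). The lower share was not seen in these cells alone: the *Gdf10* or *C7*-positive cells stood at 2.02% and 0.881% of the same denominator, which is 2.29-fold lower in ACD (1.53 to 3.44), while the *Pi16*-positive cells stood at 7.55% and 10.8%. This denominator also carried many cartilage transcripts. Its cells with no *Cyp2f2* UMI, within the same *Pi16*, *Gdf10* and *C7* limits, stood at 4647 CPM of the cartilage gene *Cytl1* in control and 4634 in ACD. Because membership was set by *Cyp2f2* UMIs, fewer cells of the class and less *Cyp2f2* per cell cannot be told apart. The ACD cells were deeper, which makes 3 UMIs easier to reach. Another setting thinned each cell to 2000 UMIs and asked for any *Cyp2f2* UMI in the thinned counts. Its other limits stayed on the unthinned counts, so depth could still act through them. The log2 ratio of the share of *Pdgfra*-positive, *Ptprc*-negative cells was then -1.41 rather than -1.06.

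Across the transcriptome, few genes differed by much between the libraries. Of 9681 genes with at least 50 UMIs in the members, 116 (1.20%) were at least 2-fold higher in ACD and 29 (0.300%) at least 2-fold lower, with 10 CPM added to each level before the ratio. The median log2 ratio over all these genes was -0.07. Calls of 2-fold and medians of lists are on this scale throughout, and a log2 ratio given with an interval or beside a pair of levels is of the levels themselves.

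Interferon-induced genes were among the highest ratios, below the acute-phase gene *Saa3*, which had the highest of all with 10 CPM added (5.90). *Iigp1*, an immunity-related GTPase, stood at 1.5 CPM in control (12 UMIs) and 477 in ACD (1418 UMIs), a log2 ratio of 8.31 (7.50 to 9.27). *Cxcl9*, a chemokine that attracts T cells through the receptor Cxcr3, stood at 2.5 and 488, a log2 ratio of 7.61 (6.98 to 8.32). Of its 20 control UMIs, 15 lay in 1 cell, and of its 1451 ACD UMIs, 355 lay in the 39 members with 3 *Cyp2f2* UMIs and 557 in the 33 with 4. *Cxcl10*, a ligand of the same receptor, stood at 24.2 and 298. *Gbp4* and *Igtp*, both GTPases of cell-autonomous defence, stood at 0.625 and 81.7 and at 5.5 and 124. *H2-K1*, the class I antigen-presenting chain, stood at 247 and 2262, and its partner *B2m* at 512 and 3800. *Cd74*, the invariant chain of class II antigen presentation, stood at 6.87 and 143. For each of these genes the counting intervals of the libraries lay far apart.

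The promoters of several of these genes show the sequence elements that the interferon pathway uses. As examples, 6 windows chosen by hand are printed, and each holds a match. For *Irf1*, only the window with a match is printed, so the printed windows cannot show how induced genes differ from others. Each is the 250 bases before the RefSeq transcription start on build GRCm38.p6, written 5′ to 3′ on the strand of the gene, with matches to GAS (TTCNNNGAA) or ISRE (GAAANNGAAA on either strand) in capitals. *Igtp* (chr11:58199306-58199555, plus strand) holds a GAS 45 to 37 bases and an ISRE 34 to 25 bases before its start. *Gbp2* (chr3:142620413-142620662, plus strand) and *B2m* (chr2:122147437-122147686, plus strand) hold an ISRE at 59 to 50 and at 139 to 130 bases. *Cxcl10* (chr5:92348890-92349139, minus strand) and *Saa3* (chr7:46715677-46715926, minus strand) hold an ISRE at 213 to 204 and at 125 to 116 bases. *Irf1* (chr11:53769764-53770013, plus strand, 1 of its 2 windows) holds a GAS at 90 to 82 bases.
Igtp: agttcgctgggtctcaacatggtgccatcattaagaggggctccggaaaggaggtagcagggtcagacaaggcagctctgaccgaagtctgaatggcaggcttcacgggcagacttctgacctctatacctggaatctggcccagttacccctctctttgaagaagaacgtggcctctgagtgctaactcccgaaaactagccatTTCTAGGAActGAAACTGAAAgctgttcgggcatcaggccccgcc
Gbp2: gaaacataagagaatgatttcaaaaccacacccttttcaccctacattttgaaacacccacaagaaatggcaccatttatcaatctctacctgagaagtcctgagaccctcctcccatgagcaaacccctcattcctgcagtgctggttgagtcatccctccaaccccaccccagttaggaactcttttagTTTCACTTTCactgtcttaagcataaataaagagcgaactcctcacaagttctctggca
B2m: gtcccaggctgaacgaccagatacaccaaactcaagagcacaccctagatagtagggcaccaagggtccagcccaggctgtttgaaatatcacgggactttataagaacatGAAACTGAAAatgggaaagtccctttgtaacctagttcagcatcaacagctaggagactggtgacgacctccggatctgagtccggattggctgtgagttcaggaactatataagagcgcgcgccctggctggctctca
Cxcl10: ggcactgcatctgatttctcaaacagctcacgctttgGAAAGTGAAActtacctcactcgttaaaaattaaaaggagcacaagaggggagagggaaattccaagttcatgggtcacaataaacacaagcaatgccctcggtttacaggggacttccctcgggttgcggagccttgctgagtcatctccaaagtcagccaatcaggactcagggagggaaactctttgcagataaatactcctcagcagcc
Saa3: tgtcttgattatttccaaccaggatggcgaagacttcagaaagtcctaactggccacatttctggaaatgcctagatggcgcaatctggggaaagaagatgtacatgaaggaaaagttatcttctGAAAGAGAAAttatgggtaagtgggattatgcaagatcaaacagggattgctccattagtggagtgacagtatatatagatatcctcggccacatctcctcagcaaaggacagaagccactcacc
Irf1: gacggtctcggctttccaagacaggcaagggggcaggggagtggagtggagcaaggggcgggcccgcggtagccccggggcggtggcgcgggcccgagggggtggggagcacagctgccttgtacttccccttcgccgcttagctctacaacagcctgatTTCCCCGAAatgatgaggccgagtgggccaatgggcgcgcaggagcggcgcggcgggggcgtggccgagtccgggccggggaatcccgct

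*Igtp*, *Gbp2*, *B2m*, *Cxcl10* and *Saa3* were all at least 2-fold higher in ACD members. *Irf1*, a transcription factor gene induced early by IFNγ, was not, with 718 CPM in control and 733 in ACD (log2 ratio 0.03, -0.04 to 0.10). Over all 32851 RefSeq windows of this kind, a GAS was found in 7.02% and an ISRE in 2.98%. In the 9617 windows of genes with at least 50 UMIs in the members, the shares were 5.59% and 2.43%. In the 99 windows of genes at least 2-fold higher in ACD members, they were 9.09% and 17.2%. Of the IFNγ response list, 27 of the 36 genes measured could be matched to 33 windows, of which 7 held a GAS (21.2%) and 11 an ISRE (33.3%). Windows of *Cxcl9*, *Psmb9*, *H2-K1*, *Lcn2* and *Plac8* held neither. A match describes the letters only, and an absent match says only that these letters are not in this window.

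The IFNγ response list comprised antigen presentation genes, guanylate-binding proteins, immunity-related GTPases and genes of the receptor pathway. Of its 36 members with at least 50 UMIs, 30 were at least 2-fold higher and 0 at least 2-fold lower, with a median log2 ratio of 1.98 beside -0.07 for all genes. Their summed share of all UMIs was 0.502% in control and 1.95% in ACD. The receptor and its kinases were level: *Ifngr1* stood at 105 and 115 CPM, *Ifngr2* at 31.7 and 35.6, *Jak1* at 160 and 152 and *Jak2* at 29.4 and 32.3. The immunoproteasome subunit *Psmb8* stood at 40.0 and 396 and its partner *Psmb9* at 15.0 and 183. The peptide transporter *Tap1* stood at 11.9 and 92.1 and tapasin (*Tapbp*), which loads peptides onto class I molecules, at 158 and 583. The feedback inhibitor *Socs1* was higher by less, at 132 and 235. *Cd274*, which encodes the T cell inhibitory ligand PD-L1, stood at 2.25 and 17.5.

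Genes usually assigned to type I interferon had a smaller median. Of 17 measured, 10 were at least 2-fold higher and 0 lower, with a median log2 ratio of 1.19. *Bst2* (tetherin, which holds budding viruses) stood at 18.7 and 262, *Irf7* (a transcription factor of the type I loop) at 9.25 and 62.2, and *Ifit3* (an antiviral effector) at 4.25 and 40.0. *Isg15*, a ubiquitin-like modifier, stood at 9.87 and 30.9. Many genes answer both interferons, so the lists are not separate readouts.

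Acute-phase and complement genes had the second highest median of the lists, 1.45, and 9 of 12 measured were at least 2-fold higher. *Saa3*, an acute-phase apolipoprotein, stood at 16.4 and 1565 CPM, a log2 ratio of 6.58 (6.33 to 6.84). *Lcn2*, which withholds iron from bacteria, stood at 2.00 and 122. In the complement cascade, the protease genes *C1s1* and *C1ra* stood at 136 and 610 and at 118 and 337, factor B (*Cfb*) at 39.6 and 146, and *C4b* at 152 and 415. The central component *C3* stood at 752 and 1365, which is short of 2-fold.

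Chemokines differed unevenly. Of 9 on the chemokine list, whose median log2 ratio was 0.76, 2 were at least 2-fold higher. They were *Ccl8*, which attracts monocytes and stood at 22.9 and 221, and *Cxcl12*, whose product retains leukocytes and progenitors, with 126 and 403. *Ccl7*, the most abundant, stood at 2147 and 2660, *Ccl2* at 468 and 798 and the eosinophil attractant *Ccl11* at 61.5 and 120. Among 20 cytokines and growth factors, with a median of 0.01, the 2 genes at least 2-fold higher were the alarmin *Il33*, at 0.875 (7 UMIs) and 15.5, and *Angptl4*, an inhibitor of lipoprotein lipase, at 33.5 and 118. *Il6* stood at 43.2 and 50.8 with overlapping intervals.

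**Figure D2:**
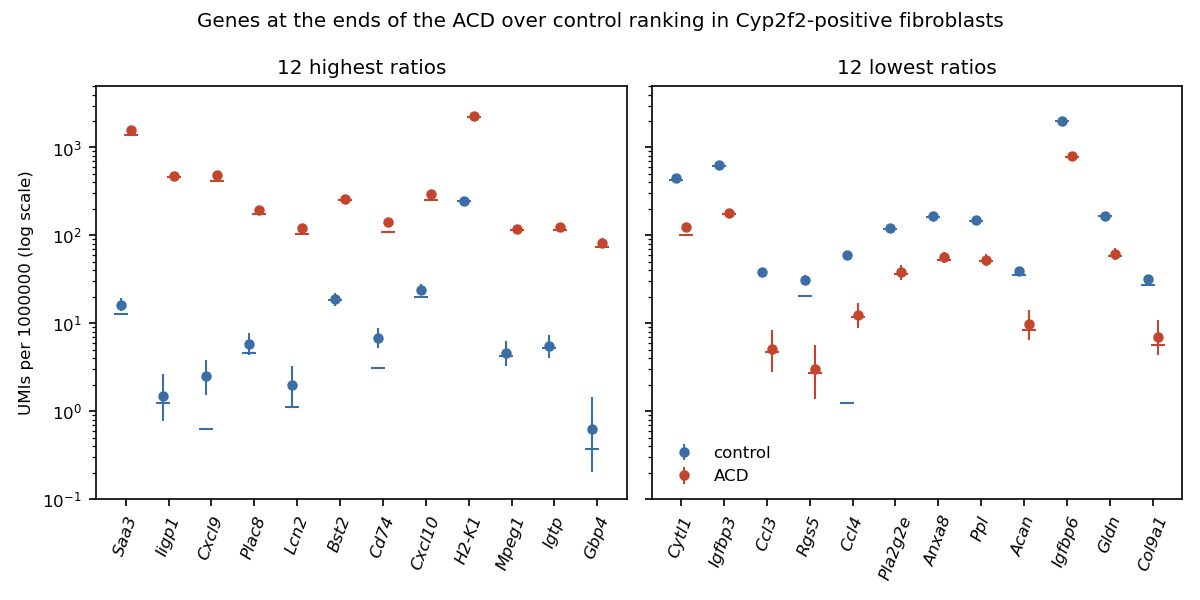
Levels in *Cyp2f2*-positive fibroblasts of the 12 genes with the highest and the 12 with the lowest ratio of ACD over control once mitochondrial, ribosomal protein and hemoglobin genes were left out, as UMIs per 1000000 on a log axis, with exact Poisson 95% intervals. Horizontal ticks show the level without the UMIs of the top cell of that library. *Saa3* stood at 16.4 and 1565, and the control level of *Ccl4* at 60.6 rested on 1 cell.

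Transcripts of leukocytes in the members bear on genes such as *Cd74*, *Plac8* and *Mpeg1*, which leukocytes also express. *Mpeg1*, a pore-forming protein of macrophages, stood at 4.62 and 119 and had a UMI in 54.0% of ACD members, where its highest cell held 13 of 353 UMIs. *Plac8* stood at 5.87 and 193. The T cell markers summed to 2.25 CPM in control, with *Cd3d* and *Il2rb* at 0, and 17.8 in ACD, with 5 of 5 detected. The myeloid markers summed to 45.4 and 46.4, with 5 of 6 detected and *C1qa* at 0 in both libraries. These sums were above those of the *Pi16*-positive (14.9 and 27.6), *Gdf10* or *C7*-positive (35.8 and 34.2) and *Acan*-positive cells (19.5 and 28.4). At least 3 UMIs of T cell markers were found in 1 control and 1 ACD member and of myeloid markers in 25 and 10 members. A stricter setting summed the markers of keratinocytes, T cells, myeloid cells, mast cells or basophils, endothelial cells, pericytes, Schwann cells and melanocytes, without *Epcam*. Without every member that held at least 3 of these summed UMIs, the median log2 ratio of the IFNγ list was 2.03 in place of 1.98. Cartilage markers were not part of this setting.

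The transcripts that were higher in ACD were not spread evenly over the cells. With each cell thinned to 2000 UMIs, so that depth was equal and 0 members were left out, *Iigp1* had a UMI in 0.404% of control and 42.7% of ACD members (35.9% to 49.6%), against 1.48% and 69.2% unthinned. The thinned share in ACD was 22.1% in *Pi16*-positive cells and 2.36% in the *Acan*-positive cells, whose median depth was 9580 UMIs. *Cxcl9* had a UMI in 16.1% of thinned ACD members and 0.262% of *Acan*-positive cells, *Saa3* in 22.3% and 1.49%, and *Psmb9* in 28.4% and 5.42%. All 4 shares were therefore well above the level in the cartilage cells of the same library. *Cd74* was not: it had a UMI in 9.95% of thinned ACD members and 13.0% of *Acan*-positive cells. In control its thinned shares were 0.942% and 0.439%. For some genes the UMIs were concentrated in the top 22 of 211 ACD members, which were ranked anew for each gene. The top 22 for the gene in question held 89.5% of the *Cxcl9* UMIs, 89.0% of *Saa3*, 87.8% of *Cxcl10* and 86.6% of *Cd74*. Ranked in the same way, the top 22 held 68.3% for *Gbp4* and 63.7% for *Igtp*, and 45.6% for *Iigp1*, 27.6% for *H2-K1* and 24.0% for *B2m*. Of the 63 ACD members with a *Cxcl9* UMI, 32 also had *Cxcl10*, 56 had *Iigp1* and 28 had *Saa3*, beside 60, 146 and 70 of all 211 members. Of the 51 with *Lcn2*, 40 had *Saa3*.

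**Figure D3:**
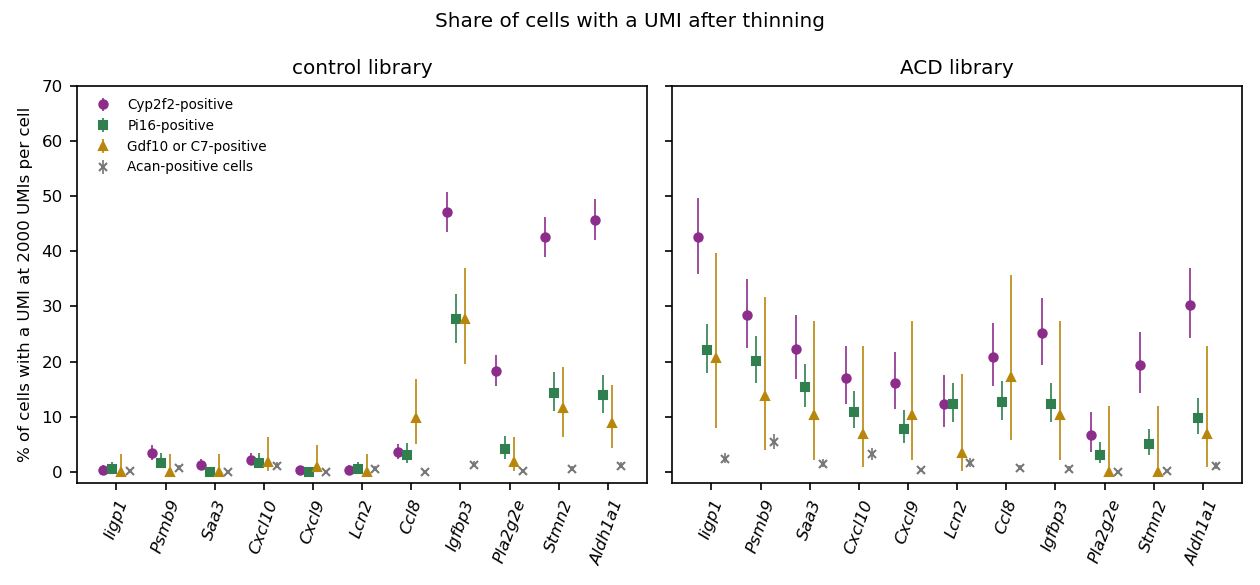
Percent of cells with a UMI of each gene after thinning every cell to 2000 UMIs, in the control library (left) and the ACD library (right), with exact binomial 95% intervals, for the *Cyp2f2*-positive fibroblasts and 3 other gated classes. For *Iigp1* the members' percentage was 0.404 in control and 42.7 in ACD, and for *Stmn2* it was 42.5 and 19.4.

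Fibrillar collagen transcripts were slightly lower in ACD members. None of 10 fibrillar collagen genes passed 2-fold, and all 10 log2 ratios were below 0, with a median of -0.39. Under other settings this median lay between -0.41 and -0.14. The list includes the chondrocyte marker *Col2a1*, and the chondrocyte markers summed to 712 CPM in control members and 327 in ACD. The other settings included leaving out the members that held chondrocyte markers, a choice made after seeing the data. The median stayed below 0 there too. The part of cartilage transcripts left in the remaining members was not tested. *Col1a1* stood at 20564 and 17371 CPM (log2 ratio -0.24, -0.26 to -0.23), *Col1a2* at 30211 and 23481, and *Col3a1* at 22450 and 20709. The list summed to 7.50% of all UMIs in control and 6.30% in ACD. In *Pi16*-positive cells the corresponding sums were 3.78% and 2.27%. Outside the collagens, fibronectin (*Fn1*) stood at 2109 and 1098, periostin (*Postn*), which binds collagen and integrins, at 2655 and 2008, and decorin (*Dcn*) at 21798 and 22048. Some matrix genes were higher: osteoglycin (*Ogn*), a small proteoglycan, at 118 and 320, lumican (*Lum*) at 1396 and 2112, the crosslinking enzyme *Loxl1* at 64.4 and 130, and the metalloproteinase inhibitor *Timp1* at 77.9 and 294. Of 39 elastic fibre and matrix genes, 3 were at least 2-fold higher (*Ogn*, *Nid2* and *Efemp2*) and 0 lower, with a median of 0.02.

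The Wnt lists held no gene past 2-fold among 10 ligands, 15 receptors, 14 inhibitors and 14 targets, with medians of -0.09, -0.13, -0.12 and -0.16. Among ligands and their amplifiers, *Wnt5a* stood at 143 and 117 and *Rspo3* at 111 and 89.4, while *Rspo1* had 200 and 98.5 (log2 ratio -1.02, -1.21 to -0.84). In *Pi16*-positive cells *Rspo1* stood at 68.2 and 90.1. Among inhibitors, the deacylase *Notum* stood at 28.1 and 11.1 and *Sfrp1* at 15.1 and 37.0. Of the targets, *Axin2*, a negative feedback gene of the pathway, stood at 85.6 and 64.2, beside the *Sp5* values above. The BMP inhibitor noggin (*Nog*) stood at 75.6 and 39.3.

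Genes by which the members stood out in control differed in how far they held in ACD. *Cyp26b1* stood at 1110 and 697 CPM (log2 ratio -0.67, -0.74 to -0.60), *Aldh1a1* at 513 and 293, and *Aldh3a1*, an aldehyde dehydrogenase, at 343 and 174. *Stmn2* stood at 460 and 183. *Stc1*, *Sp5*, *Cpz* and *Hpgd* stayed within 0.21 of 0 on the log2 scale. *Pla2g2e* was the marker with the lowest ratio, -1.68 (-1.97 to -1.40). The 13 cytochrome P450 genes, *Cyp2f2* among them, had a median of -0.01, with *Cyp1b1*, a target of the aryl hydrocarbon receptor, at 16.5 and 69.9, and no xenobiotic or redox gene of 41 passed 2-fold (median -0.05).

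Lipid mediator genes went in both directions. Of 18, *Pla2g16* (13.1 and 54.1) and *Ptgs2* (22.1 and 58.8), the inducible cyclooxygenase, were at least 2-fold higher, and *Pla2g2e* lower, with a median of -0.04. For *Ptgs2*, 74 of the 175 ACD UMIs lay in 1 cell. *Ptges*, which makes prostaglandin E2, stood at 75.5 and 90.8. Of 17 lipid and preadipocyte genes, with a median of -0.03, 1 passed 2-fold. It was the apolipoprotein gene *Apod*, at 1172 and 2750, whereas *Apoe* stood at 5430 and 3150.

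Of 9 measured genes on a list of stanniocalcins, insulin-like growth factor-binding proteins and the receptors for parathyroid hormone and calcium, with a median of -0.03, 1 was at least 2-fold higher and 2 were lower. *Igfbp3* stood at 630 CPM in control and 182 in ACD, a log2 ratio of -1.79 (-1.92 to -1.67), and *Igfbp6* at 1996 and 796. *Igfbp4* stood at 444 and 948, and *Igf1* at 310 and 396. In the *Pi16*-positive cells *Igfbp3* stood at 449 and 223, so the lower level was seen in that class too. Further genes at the lower end were *Gldn* (gliomedin, a cell adhesion protein) at 167 and 61.5, *Anxa8* (annexin A8) at 167 and 56.1 and *Ppl* (periplakin, a cytolinker) at 149 and 53.1.

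Part of the lower end carried signs of other cells. The 3 lowest genes were hemoglobin genes, and 2652 of the 3247 control UMIs of *Hbb-bs* lay in 1 member. For *Ccl3* and *Ccl4*, 305 of 305 and 475 of 485 control UMIs lay in 1 cell. The cartilage genes *Cytl1*, *Acan* and *Col9a1* stood at 455 and 124, 39.2 and 9.75, and 31.6 and 7.06. The 7 chondrocyte markers, all detected, summed to 712 CPM in control members and 327 in ACD, and 116 of 743 and 51 of 211 members held at least 3 of their UMIs. *Rgs5*, a pericyte gene, stood at 31.2 and 3.03, the pericyte markers summed to 203 and 148 with 5 of 5 detected, and 17 control and 4 ACD members held at least 3 of their UMIs. The keratinocyte markers summed to 121 and 105, with 106 and 42 such members. Endothelial markers summed to 3.87 and 2.02, with *Tie1* and *Emcn* at 0 in ACD.

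**Figure D4:**
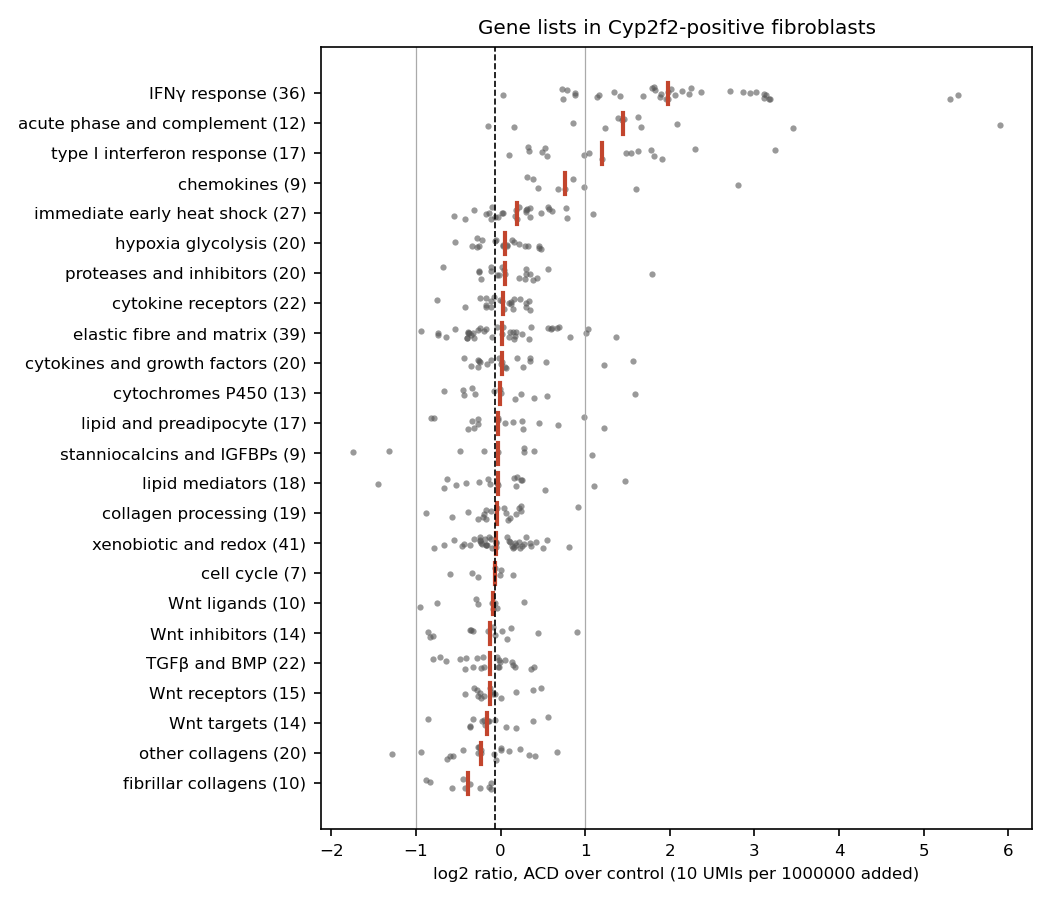
Log2 ratio of ACD over control in *Cyp2f2*-positive fibroblasts for each gene (grey points) of 24 gene lists, with the median of each list (red bar), the number of genes measured in brackets, the median of all 9681 genes (dashed line) and the 2-fold limits (grey lines). The IFNγ response list had the highest median, 1.98, and the fibrillar collagens the lowest, -0.39.

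The remaining lists stayed near the median of all genes. For collagen processing (19 genes), proteases and their inhibitors (20), TGFβ and BMP (22), hypoxia and glycolysis (20), cytokine receptors (22) and the cell cycle (7), the medians lay between -0.12 and 0.05, and only *Timp1* passed 2-fold. Of 27 immediate-early and heat-shock genes, whose levels can move with tissue dissociation, *Hspb1* alone was 2-fold higher, at 135 and 300, with a median of 0.20. Of 20 non-fibrillar collagens, with a median of -0.23, only *Col9a1* passed 2-fold.

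The *Pi16*-positive fibroblasts of the same libraries are set beside the members next, and since there is 1 library per group no difference between the classes could be tested over samples. In them, 102 of 9358 genes (1.09%) were at least 2-fold higher and 31 (0.331%) lower. Of the 36 IFNγ genes, 28 were at least 2-fold higher in these cells, with a median of 1.83. *H2-K1* stood at 229 and 1931 in them, and *Saa3* at 0.773 (3 UMIs) and 1582. *Iigp1* reached 267 in ACD *Pi16*-positive cells and 477 in ACD members, and *Igtp* 60.4 and 124. The 6 perifollicular markers summed to 1833 and 4614 CPM in *Pi16*-positive cells and to 225 and 234 in the members, and their part in the differences between the classes was not tested. Over 9106 genes, the log2 ratio of the members exceeded that of the *Pi16*-positive cells by at least 1 for 28 (0.307%) and fell short by at least 1 for 21 (0.231%).

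The genes with the widest gap between these classes included the following. *C1qtnf3*, an adipokine gene, stood at 29.1 and 111 in the members and 93.7 and 61.3 in *Pi16*-positive cells. *Wisp2*, a matricellular protein, stood at 61.7 and 190 and at 116 and 118. *Sfrp2*, an extracellular Wnt modulator, stood at 75.9 and 107 and at 406 and 174. Of the 318 ACD UMIs of *Sfrp2* in the members, 78 lay in 1 cell, and at 2000 UMIs per cell 9.42% of control and 9.48% of ACD members had a UMI of it. *Postn* was 1.04 apart on the log2 scale (0.97 to 1.11), with 2036 and 749 in *Pi16*-positive cells. *G0s2*, an inhibitor of fat breakdown, stood at 201 and 311 and at 85.5 and 44.7. The ratio of *Thbs4* in the members rested on 1 ACD cell, which held 142 of its 152 UMIs.

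**Figure D5:**
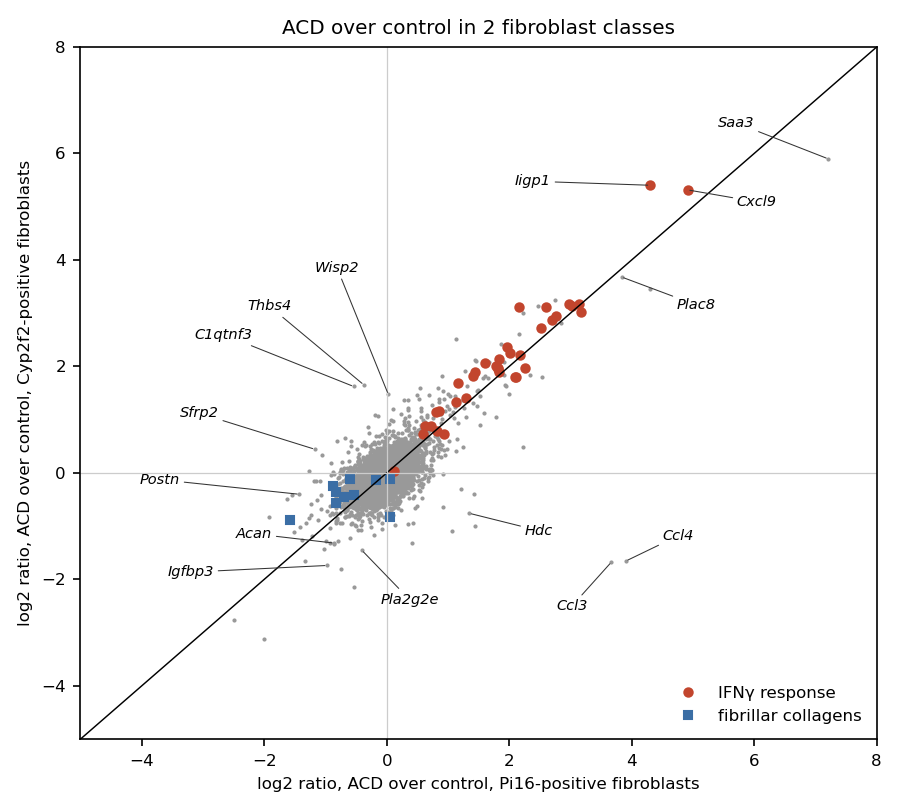
Log2 ratio of ACD over control (10 UMIs per 1000000 added) of 9106 genes in *Pi16*-positive fibroblasts (horizontal axis) and *Cyp2f2*-positive fibroblasts (vertical axis), with the IFNγ response and fibrillar collagen lists in colour and a line of equal ratios. Both axes come from the same pair of libraries. *Iigp1* lies at 4.3 and 5.4, and *Ccl3* and *Ccl4*, whose control UMIs in the members lay almost all in 1 cell, lie far below the line.

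Against the *Gdf10* or *C7*-positive fibroblasts, of which only 29 were found in ACD, 104 of 3443 genes (3.02%) had a log2 ratio at least 1 higher in the members and 47 (1.37%) at least 1 lower. Among the former were *Dlk1*, which encodes an inhibitor of fat cell differentiation, with 49.9 and 23.9 CPM in the members and 357 and 13.7 in the other class, and *Comp*, a cartilage matrix protein, with 89.0 and 101 in the members and 199.7 and 13.7 in the other class. Among the latter was *Scara5*, a ferritin receptor, with 223 and 111 in the members and 74.5 and 147 in the other class. The widths of the intervals in so few cells limit what these values show.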

How the data were processed

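The authors prepared 1 Chromium Next GEM Single Cell 3′ v2 library each from control and DNFB-elicited ear skin, after digestion with collagenase D and DNase1 and removal of dead cells. The deposited values were UMI counts per gene and barcode. The study's methods give Cell Ranger v3.0.2 and mm10-1.2.0, whereas the submitters' processing notes list Cell Ranger v3.1.0. The filter took cells above 200 and below 5000 genes, below 8% mitochondrial UMIs, and up to 25000 UMIs, a limit that the methods print with the sign reversed. The study states fewer cells than this filter left. No doublet caller was run, so members with markers of other cell types were counted instead.

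UMIs were summed per library and class with Python v3.11.15, pandas v2.3.3 and scipy v1.17.1, and the ratio scripts were tested on simulated counts. *Acan*-positive cells held at least 3 *Acan* UMIs. *Pi16*-positive and *Gdf10* or *C7*-positive fibroblasts met the same rule as the members with the genes exchanged. Exact Poisson, conditional and Clopper-Pearson intervals have a confidence level of 95%. With 1 library per group no test between groups was possible and no p-value is given. Genes needed 50 UMIs over both libraries, and a call of 2-fold had 10 CPM (UMIs per 1000000) added. Named genes were the markers and the 12 highest and 12 lowest ratios without mitochondrial, ribosomal protein and hemoglobin genes. Also named were the most abundant and most different genes of each list and the widest differences between classes. Leading genes over the other *Pdgfra*-positive, *Ptprc*-negative cells were named too. A gene of the IFNγ response list is counted in its totals but not reported here. The members and the gene lists were chosen with earlier results of these data known. Files hold 27998 genes, and 65 symbols occur more than once. Alternatives were other filters, thresholds, depths, scalings and added constants. Promoter windows come from a RefSeq table of GRCm38.p6.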

Additional observations from a re-analysis of the deposited data

Results flagged for a closer look

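For 3 genes the summed members and the *Pi16*-positive fibroblasts of the same libraries lay on opposite sides of the 2-fold limit, and the difference was not tested because there is 1 library per group. *Acp5*, which encodes an acid phosphatase of osteoclasts and macrophages, stood at 34.0 CPM in control and 10.8 in ACD members, a log2 ratio of -1.08 with 10 CPM added, and at 15.5 and 43.3 in *Pi16*-positive cells. *Ccl3*, a chemokine gene, stood at 38.1 and 5.04 in the members, a log2 ratio of -1.68 on the same scale, and at 0 and 117 in *Pi16*-positive cells. All 305 of its control UMIs in the members lay in 1 cell. *Ccl4* stood at 60.6 and 12.4, a log2 ratio of -1.65, and at 1.03 and 155 in *Pi16*-positive cells. Of its 485 control UMIs in the members, 475 lay in 1 cell. Without the top cell of each library, the log2 ratios in the members on this scale were 0.56 for *Ccl3*, 0.95 for *Ccl4* and -1.0 for *Acp5*.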

How the results depend on the processing

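No paired analysis was possible because there is 1 library per group and the labels carry no replicate numbers, and no library could be left out for the same reason. Of the summary values recomputed under other settings, 396 stayed within their error or within 1.5 times and 19 moved. None whose interval or spread lay on one side of 0 changed sign, but medians near 0 did, such as that of collagen processing, which lay between -0.15 and 0.05. The log2 ratio of the members' share of the *Pdgfra*-positive, *Ptprc*-negative cells lay between -1.50 and -0.98. It was -1.41 (-2.10 of all cells kept) with *Cyp2f2* gated on thinned counts, the setting called equal depth here. Without members that held at least 3 summed UMIs of the other markers given above, cartilage markers not among them, it was -1.50 (-2.18). That setting left 125 ACD members. With at least 5 *Cyp2f2* UMIs, 139 ACD members remained and 45 genes were 2-fold lower in place of 29. All deposited barcodes gave 60 lower genes, a cell cycle median of 0.28, and 54 and 35 genes above and below the *Pi16*-positive cells, in place of 28 and 21. Without members with other markers, 49 genes were above. With 1 CPM added, 179 genes were higher, 148 lower, and the IFNγ median was 2.87. With no minimum, the acute-phase median was 0.53. Against the *Gdf10* or *C7*-positive cells, 74 genes were below at equal depth, and 165 were above and 17 below without the top cell of each library, in place of 104 and 47.

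Of the values of single genes, 1850 stayed within their interval, 535 moved, and 12 log2 ratios of the levels reversed. All barcodes turned *3110079O15Rik* (0.56) and *Cytl1* (0.20). *Thbs4* was -1.18 with at least 5 *Cyp2f2* UMIs, -1.52 at equal depth, -1.25 without members with chondrocyte markers and -1.32 without its top cell. *Ccl4* was 5.0 without members with other markers, 2.84 without those with chondrocyte markers and 3.23 without its top cell. *Rgs5* was 0.36 without members with other markers, and *Acan* (0.97) and *3110079O15Rik* (0.033) turned without those with chondrocyte markers. The marker panels hold *Acan*, *Cytl1* and *Rgs5* themselves, so leaving out cells by them lowers these genes by construction. The settings without chondrocyte markers or top cells were chosen after seeing the data. The cause was not tested. The depth of 211 ACD members limits genes of few UMIs.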

Other observations

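Some genes past the 2-fold limit in the members belonged to none of the lists and were chosen for mention after their values were seen. *Figf*, which encodes the lymphatic growth factor VEGF-D, stood at 24.5 CPM in control and 68.2 in ACD, and had a UMI in 47.9% of ACD members. *Adm*, the vasodilator adrenomedullin, stood at 53.1 and 123 in the members and at 104 and 93.2 in *Pi16*-positive cells. *Pdpn* (podoplanin, a surface glycoprotein of activated fibroblasts) stood at 26.5 and 66.2, and *Gfra1*, a receptor for glial cell line-derived neurotrophic factor, at 14.7 and 54.8. *Lgals3bp*, a secreted glycoprotein, stood at 15.9 and 148, with a UMI in 71.1% of ACD members. On the lower side, *Zbtb16*, a glucocorticoid-responsive transcription factor gene, stood at 78.9 and 28.9, and *Dbp*, an output gene of the circadian clock, at 66.0 and 26.2. *Cthrc1*, a secreted collagen triple helix protein, stood at 292 and 129. *Gdf15*, a stress cytokine, stood at 139 and 61.8 in the members and at 51.3 and 47.8 in *Pi16*-positive cells.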
